A study of Mus musculus with 2 samples.

Results

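A set of 10 genes that mark vascular endothelium, out of 18194 genes named on the array, was followed in injured mouse kidney with and without estrogen sulfotransferase (EST), the enzyme encoded by Sult1e1 that attaches sulfate to estrogens. They were Kdr, Flt1, Tek, Tie1, Eng, Nos3, Cdh5, Pecam1, Emcn and Plvap, chosen by name, and they comprised every probe set whose single gene symbol was one of these, 15 of the 34958 probe sets with a single symbol. The EST KO AKI group was kidney tissue of 6 male EST KO mice (124 mg) and the WT AKI group was kidney tissue of 3 male wild-type mice (180 mg), where AKI stands for acute kidney injury. The labels give strain C57BL/6 for both groups. Mice aged 8 weeks had undergone 30 min of warm bilateral renal ischemia and were killed 24 h later, so both groups carried the injury and no uninjured kidney was measured here. Each group was 1 pool read on 1 array, so the spread between mice is unknown, no test between genotypes was possible, and every size below describes these 2 arrays.

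The endothelium lines every vessel of the kidney, from arteries to the fenestrated capillaries of the glomerulus and the peritubular network. It is maintained by vascular endothelial growth factor (VEGF), made largely by epithelial cells and received by the tyrosine kinases encoded by Kdr and Flt1, and by angiopoietins, received by the product of Tek with its relative Tie1. Eng, Nos3, Cdh5, Pecam1, Emcn and Plvap encode parts of the machinery by which these cells sense growth factors of the TGF-beta family, relax vessels, hold to each other and form their surface and pores. Loss of peritubular capillaries is a known sequel of ischemic kidney injury. In whole tissue, fewer endothelial cells and less of an RNA per cell cannot be told apart.

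Values are the deposited intensities on a linear scale. Both arrays shared a mean of 500.0 once 2% of the values at each end had been set aside, and their medians were 242.4 in the EST KO pool and 261.8 in the WT pool. Background was the 95th percentile, on each array, of the 129 probe sets of gene families mostly silent in kidney (odorant, pheromone and taste receptors and hair keratin partners), and lay at 638.3 in the EST KO pool and 676.1 in the WT pool. A value under background was raised to it before a ratio was taken, so such a fold is a bound and is written "at least". The error that these arrays do give, the SD of the log2 ratio of 1 probe set around that of its gene, was 0.28 (1.21-fold) from 1663 genes with at least a pair of probe sets above background in both pools. Sult1e1 itself read 17.2 in the EST KO pool and 472.7 in the WT pool, both below background, so the genotype labels were not checked by it. The treatment protocol calls the EST KO tissue liver where all other labels say kidney; of 7 hepatocyte markers on the array, 5 were below background in both pools (Alb, serum albumin, Apoa1, Tat, F9 and Ahsg), with Alb at 522.3 in the EST KO pool and 487.9 in the WT pool. The other 2 read higher in the EST KO pool: Ttr, transthyretin, at 11957 in the EST KO pool and 1716 in the WT pool (6.97-fold), and Cps1, a urea cycle enzyme, at 811.7 in the EST KO pool and 730.7 in the WT pool (1.11-fold). The 7 summed to 14221 in the EST KO pool and 3984 in the WT pool, mostly through Ttr, and all 8 proximal tubule markers were above background in both pools. Control probe sets at the 3' end of actin read 1.28 times those at its 5' end in the EST KO pool and 1.35 times in the WT pool, a sign of RNA integrity. For GAPDH this quotient was 0.84 in the EST KO pool and 0.88 in the WT pool.

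As a group, endothelial genes were lower in the EST KO pool. Of the 10 genes, 8 lay above background in at least 1 pool, and all 8 read lower in the EST KO pool with the values as deposited. Nos3 was at least 1.93-fold lower, Eng 1.68-fold, Plvap 1.54-fold and Kdr 1.48-fold lower, whereas Emcn (1.08-fold) and Cdh5 (1.06-fold) differed by less than the probe set error. Their median log2 ratio was -0.44, against -0.06 for all 7346 measured genes. Scaling the arrays to the same median placed the median of all genes at 0.06 and put Emcn (0.003) and Cdh5 (0.02) above 0. Such scaling shifts every ratio by the same amount. The gap of -0.39 between the medians of the endothelial genes and of all genes could therefore hardly change with it. Nos3 and Pecam1 were above background only in the WT pool and so could only come out lower. The 6 genes above background in both pools were all lower as deposited, with the same median of -0.44, and 2 of them (Eng and Plvap) were at least 1.5-fold lower, against 7.2% of all genes above background in both pools.

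Across all measured genes, 55.6% were lower in the EST KO pool by any amount with the values as deposited, and 43.1% with the arrays scaled to the same median. Among genes above background in both pools the share was 55.2%, and among the 4571 genes whose mean level lay in the range of the endothelial genes (643.4 to 1701) it was 60.1%. That last background was chosen after the values had been seen. A fold of at least 1.5 lower was reached by 3 of the 8 measured endothelial genes (Nos3, Eng and Plvap), against 7.57% of all measured genes and 8.44% of those in the same range of level. No endothelial gene reached 2-fold lower with values raised to background, a size found in 1.43% of all measured genes. For Nos3 this does not show that 2-fold was not reached, since its ratio is a bound. Its log2 ratio without a floor was -1.07. By probe set, the 7 above background in both pools were all lower as deposited, against 53.3% of all such named probe sets, and 2 were at least 1.5-fold lower, against 6.99%. A further 4 were above background only in the WT pool and so could only come out lower. In the other direction, 8.62% of measured genes were at least 1.5-fold and 3.08% at least 2-fold higher, and no endothelial gene was. The summed intensity of the brightest probe sets of all 10 genes was 8469 in the EST KO pool and 11620 in the WT pool, a ratio of 0.73.

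**Figure D1:**
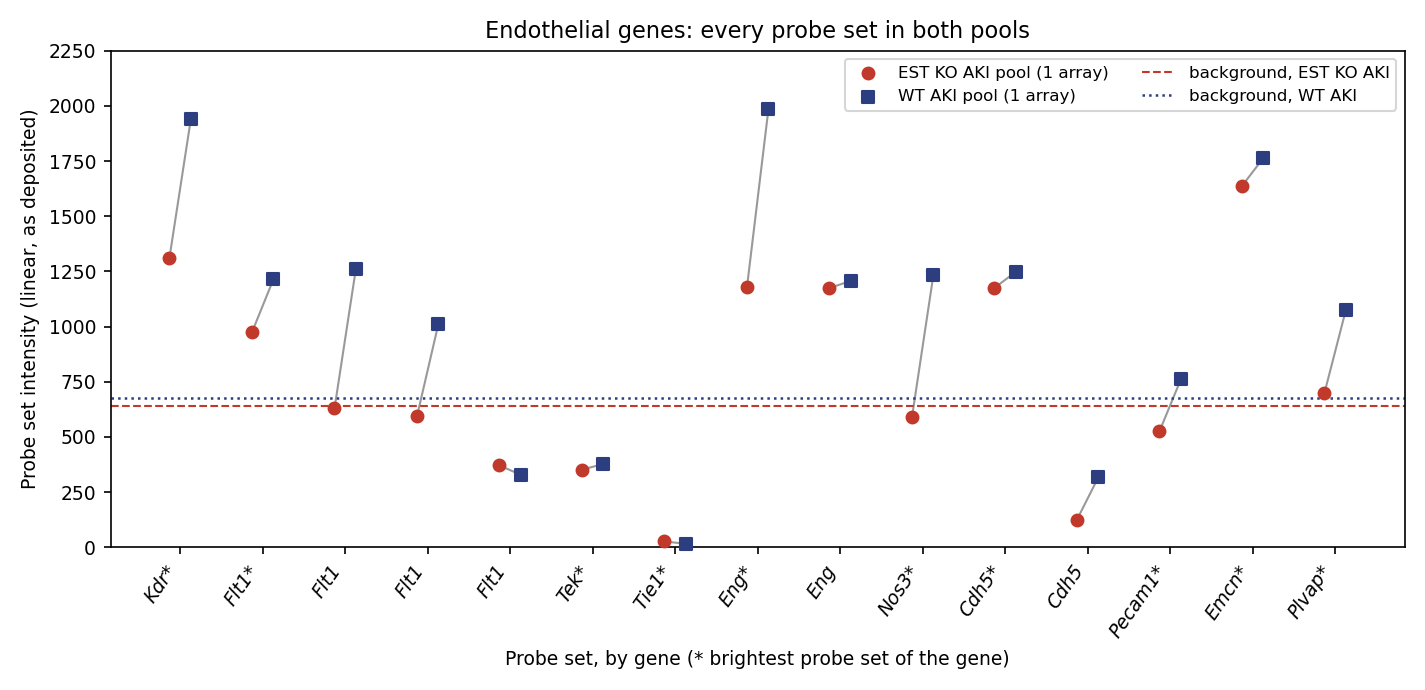
Intensity (linear, as deposited) of all 15 probe sets of the 10 endothelial genes in the EST KO AKI pool (red circles) and the WT AKI pool (blue squares), 1 array each, with the background of each array as a horizontal line; an asterisk marks the probe set from which the gene was read. The red circle lies under the blue square in the 7 probe sets above background in both pools and in the 4 above it only in the WT pool, by little for Cdh5, Emcn and the second Eng probe set and by most for the first Eng and the Nos3 probe sets.

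Promoter sequences are given beside the ratios, and their part in the ratios was not tested. RefSeq promoter windows of build GRCm38.p6, from 250 bases before to 50 bases after the annotated start, matched 6 of the 10 genes (Kdr, Flt1, Tek, Tie1, Eng and Emcn). Those of the 4 that were also above background are printed 5' to 3' in lower case, with CAGGAA and its reverse complement TTCCTG in capitals, letters that contain the GGAA core recognised by ETS transcription factors, a family active in endothelium.
Eng, chr2:32646345-32646644, plus strand: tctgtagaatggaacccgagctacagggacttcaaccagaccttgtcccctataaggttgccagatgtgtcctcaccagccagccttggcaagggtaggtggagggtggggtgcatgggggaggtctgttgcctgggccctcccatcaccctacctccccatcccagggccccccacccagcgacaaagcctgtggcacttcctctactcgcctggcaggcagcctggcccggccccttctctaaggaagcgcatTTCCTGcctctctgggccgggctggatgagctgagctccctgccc
Kdr, chr5:75978406-75978705, minus strand: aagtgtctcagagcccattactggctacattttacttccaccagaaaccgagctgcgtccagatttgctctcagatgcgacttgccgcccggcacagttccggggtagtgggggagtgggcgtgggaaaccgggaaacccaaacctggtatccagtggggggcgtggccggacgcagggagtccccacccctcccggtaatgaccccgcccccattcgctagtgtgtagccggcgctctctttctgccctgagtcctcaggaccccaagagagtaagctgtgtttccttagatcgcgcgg
Flt1, chr5:147725962-147726261, minus strand: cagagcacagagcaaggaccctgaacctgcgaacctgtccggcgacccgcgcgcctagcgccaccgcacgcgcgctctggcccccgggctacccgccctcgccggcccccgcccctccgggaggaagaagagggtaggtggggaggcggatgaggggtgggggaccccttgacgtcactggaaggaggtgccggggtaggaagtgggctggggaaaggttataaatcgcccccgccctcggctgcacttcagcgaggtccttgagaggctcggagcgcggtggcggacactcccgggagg
Emcn, chr3:137340828-137341127, plus strand: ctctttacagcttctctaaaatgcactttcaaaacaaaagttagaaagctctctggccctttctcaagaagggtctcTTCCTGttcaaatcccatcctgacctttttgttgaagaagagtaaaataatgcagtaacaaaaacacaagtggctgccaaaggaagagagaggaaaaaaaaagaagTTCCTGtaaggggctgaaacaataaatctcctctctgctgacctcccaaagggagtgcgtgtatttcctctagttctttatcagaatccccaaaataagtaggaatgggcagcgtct

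Searched on both strands, CAGGAA was found in 4 of the 6 windows (Eng, Emcn, Tek and Tie1), against 30.6% of the 32851 promoter windows of the table. The windows of Kdr and Flt1 did not hold it, and Tek and Tie1 were below background in both pools and have no ratio. By brightest probe set, Eng, 1.68-fold lower, held 1 match, Kdr, 1.48-fold lower, and Flt1, 1.25-fold lower, held 0, and Emcn, 1.08-fold lower, held 2. Whether the number of matches goes with the ratios was not tested. GGAA alone was in all 6 windows and in 96% of all windows. TATAAA was in 1 of 6, that of Flt1 (13.6% of all windows), CACCC in 5 of 6 (57.5%) and GATAA in 2 of 6 (25.4%). A match is a string of letters and not evidence of binding.

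The VEGF receptors were both lower in the EST KO pool. Kdr, which encodes VEGFR2, the main signalling receptor for VEGF in endothelium, read 1313 in the EST KO pool and 1943 in the WT pool. Both values were at least 2.06 times their background, and the ratio of 1.48-fold lower (log2 -0.57) rests on the only probe set of the gene. Flt1 encodes VEGFR1, which binds VEGF tightly and in its soluble form withholds it from VEGFR2. Its brightest probe set (1451756_at) read 974.3 in the EST KO pool and 1214 in the WT pool, 1.25-fold lower (log2 -0.32). The probe set 1419300_at read 628.7 in the EST KO pool, just under background, and 1263 in the WT pool, at least 1.98-fold lower. The probe set 1440926_at read 593.2 in the EST KO pool and 1012 in the WT pool, at least 1.59-fold lower. The 3 probe sets thus went the same way and differed in size, with a mean log2 ratio of -0.66. A further Flt1 probe set (1454037_a_at) read 370.3 in the EST KO pool and 327.7 in the WT pool, below background in both.

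The angiopoietin receptors could not be compared. Tek, which encodes TIE2, the receptor by which angiopoietins keep vessels quiescent, read 351.0 in the EST KO pool and 377.6 in the WT pool. Tie1, its partner receptor, read 25.9 in the EST KO pool and 15.3 in the WT pool. Each gene had 1 probe set, and all 4 values were below background, so no fold is given. Against the 129 probe sets of silent families, Tek stood at percentile 76.7 in both pools and Tie1 at percentile 12.4 in the EST KO pool and 10.9 in the WT pool. A reading under background is a property of the probe set at this signal and does not show that kidney endothelium lacks the transcript.

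Eng gave different answers from its probe sets. It encodes endoglin, the co-receptor that presents BMP9 to the receptor kinase ALK1 on endothelial cells and is also found on macrophages and stromal cells. The brighter probe set (1417271_a_at) read 1179 in the EST KO pool and 1985 in the WT pool, 1.68-fold lower (log2 -0.75). The other (1432176_a_at) read 1175 in the EST KO pool and 1207 in the WT pool, 1.03-fold lower (log2 -0.04). The probe sets thus agreed in sign and not in size, and the mean of their log2 ratios was -0.40, which is under 1.5-fold. Both probe set identifiers end in _a_at, which marks sets that read several transcripts of a gene.

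Nos3 had the lowest ratio of the 8 measured genes. It encodes endothelial nitric oxide synthase, the source of the nitric oxide that relaxes vessels. It read 589.2 in the EST KO pool, below background, and 1235 in the WT pool, 1.83 times background, so it was at least 1.93-fold lower (log2 bound -0.95). Of all measured genes, 1.67% had a lower ratio. The size depends on the dim EST KO value: without a floor the log2 ratio was -1.07, past 2-fold, and with a pseudocount equal to background it was -0.64.

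Of the junction genes, Cdh5 differed by less than the probe set error and Pecam1 gave only a bound. Cdh5 encodes VE-cadherin, the adhesion protein of endothelial cell borders and one of the most specific markers of the cell type. Its brighter probe set (1433956_at) read 1175 in the EST KO pool and 1248 in the WT pool, 1.06-fold lower (log2 -0.09). A second Cdh5 probe set (1422047_at) read 124.8 in the EST KO pool and 317.7 in the WT pool, below background in both. Pecam1 encodes CD31, an adhesion protein of endothelial borders that platelets and leukocytes carry too. It read 525.5 in the EST KO pool, below background, and 761.2 in the WT pool, only 1.13 times background, so it was at least 1.19-fold lower. Without a floor its log2 ratio was -0.53, so the bound does not show that the difference was small.

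The surface and pore genes split. Emcn encodes endomucin, a sialomucin of capillary and venous endothelium. It read 1637 in the EST KO pool and 1764 in the WT pool, 1.08-fold lower (log2 -0.11), at 2.56 times background in the EST KO pool and 2.61 times in the WT pool. Plvap encodes the protein of the diaphragms that span capillary fenestrae, as in the peritubular network. It read 699.1 in the EST KO pool, 1.10 times background, and 1076 in the WT pool, 1.59 times background, and was 1.54-fold lower (log2 -0.62). Under a pseudocount the log2 ratio of Plvap was -0.39.

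Within the group the ratios were spread from the bound of -0.95 for Nos3 to -0.09 for Cdh5. Emcn and Cdh5, above background in both pools, stood within 1 SD of probe set error of no difference, and 44.1% and 46.5% of all measured genes had a lower ratio than theirs. Eng (3.65% of measured genes lower), Plvap (6.38%) and Kdr (8.14%) lay more than 2 such SDs below 0 at their brightest probe sets as deposited. With the arrays scaled to the same median, Plvap (-0.51) and Kdr (-0.45) lay less than 2 such SDs below 0 and Eng (-0.64) more. With the mean of its probe sets Eng (-0.40) also lay less than 2 such SDs below 0. The other Eng probe set was at -0.04, and Plvap and Kdr had only 1 probe set each. This SD compares probe sets on the same 2 arrays and holds no spread between mice or pools. Flt1, at 21.4%, lay just past 1 SD with its brightest probe set.

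**Figure D2:**
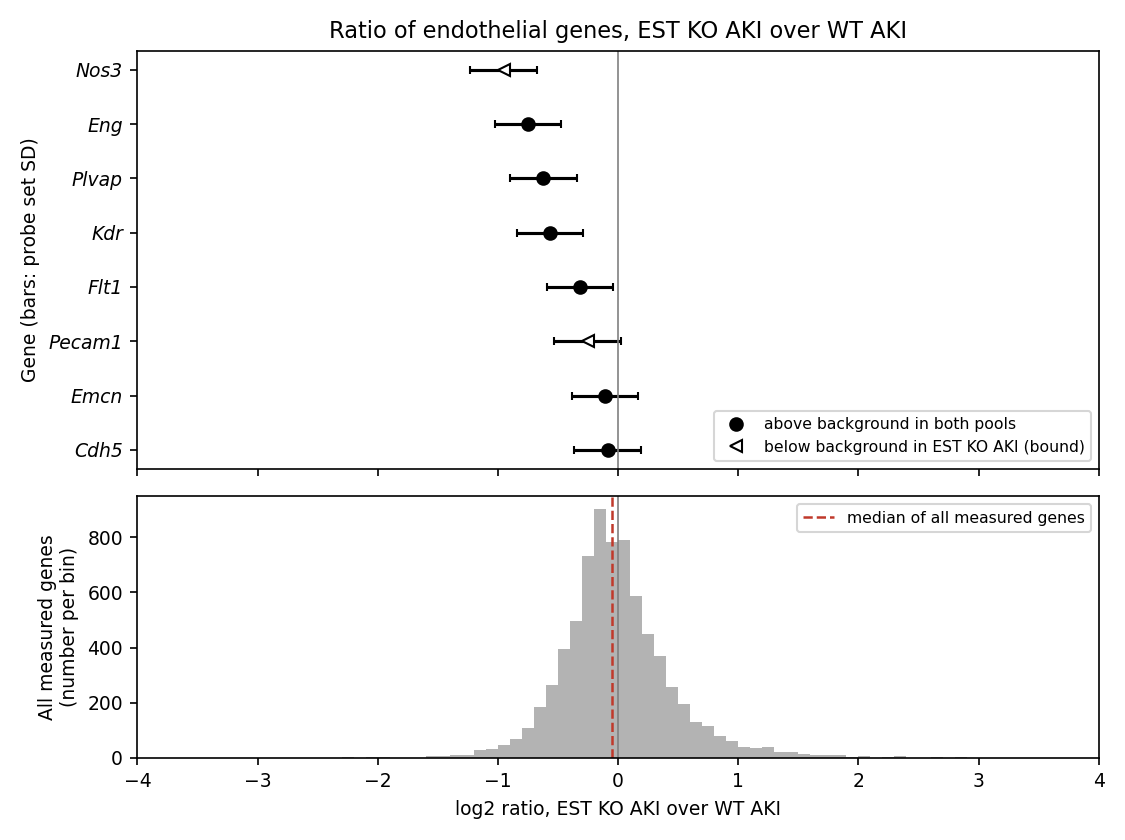
Upper panel, log2 ratio of the EST KO AKI pool over the WT AKI pool for the 8 endothelial genes above background in at least 1 pool, with bars of 1 SD of probe set error (0.28, from other genes); lower panel, the number of all 7346 measured genes per bin of the same ratio. Nos3, Eng, Plvap and Kdr lie in the lower tail of all genes, and Emcn and Cdh5 lie near its median of -0.06.

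Other genes known from endothelium, a list without the 10 above, were lower for 21 of 23 measured members, against 55.6% of all measured genes. With the arrays scaled to the same median, 20 of 23 were lower, against 43.1%. The list held 44 genes, of which 42 were on the array and 19 were below background in both pools, among them Vwf, Erg and Icam2. Of the 23, 17 were above background in both pools and 15 of these were lower, against 55.2% of all such genes. The other 6 were above it only in the WT pool and so could only come out lower. The median log2 ratio was -0.33 (-0.22 with the arrays scaled to the same median). At least 1.5-fold lower were 3 members, against 7.57% of all measured genes, and 1 was at least 1.5-fold higher, against 8.62%. Thbd, which encodes the anticoagulant receptor thrombomodulin, read 1274 in the EST KO pool and 3094 in the WT pool, 2.43-fold lower. Ednrb, an endothelin receptor, read 1205 in the EST KO pool and 1954 in the WT pool, 1.62-fold lower. Egfl7, a secreted protein of endothelial cells, read 956.6 in the EST KO pool and 1507 in the WT pool, 1.58-fold lower, while its mean over probe sets was -0.38 on the log2 scale. In the other direction, Cd36, a fatty acid receptor of capillaries that macrophages and tubules express too, was 2.49-fold higher, at 3941 in the EST KO pool and 1584 in the WT pool.

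Ligands and partners of the VEGF receptors had no common direction. Of 8 listed genes 3 were above background, 1 lower and 2 higher, with a median of 0.07. Vegfa, the ligand of both receptors and a product of podocytes and tubules, read 1097 in the EST KO pool and 873.2 in the WT pool, 1.26-fold higher (log2 0.33, and 0.16 with a pseudocount). The co-receptors Nrp2 (783.6 in the EST KO pool and 961.4 in the WT pool) and Nrp1 (1815 in the EST KO pool and 1733 in the WT pool) had log2 ratios of -0.30 and 0.07, the second within the probe set error. Vegfb, Vegfc, Vegfd, Pgf and Flt4 were below background in both pools.

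Of 6 genes of the angiopoietin axis, 2 were above background and both read lower (median -0.36), against 55.6% of all measured genes. Ptprb, the phosphatase VE-PTP that restrains TIE2, read 597.0 in the EST KO pool and 930.5 in the WT pool, at least 1.46-fold lower. It was above background only in the WT pool and so could only come out lower. Only Foxo1 could have gone either way. Foxo1, a transcription factor held in check by TIE2 signalling, had a log2 ratio of -0.18 from its brightest probe set and 0.19 from the mean of its 3. The ligands Angpt1, Angpt2 and Angpt4 were below background in both pools.

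Genes around endoglin went both ways, with 7 of 11 measured members lower, 4 higher and a median of -0.24. The share of all measured genes lower was 55.6%, near that of this list. Of the 10 above background in both pools 6 were lower, against 55.2% of all such genes. Bmpr2, a type II receptor for BMPs, was 1.63-fold lower at its brightest probe set (1532 in the EST KO pool and 2504 in the WT pool), but its other probe set above background had a log2 ratio of 0.60. Tgfbr1, a TGF-beta receptor kinase, was 1.52-fold lower (4491 in the EST KO pool and 6816 in the WT pool). The BMP targets Id2 and Id3, which encode inhibitors of helix-loop-helix factors in many cell types, were the members at least 2-fold higher at their brightest probe sets. Id2 read 5817 in the EST KO pool and 1771 in the WT pool, 3.28-fold higher, and Id3 read 3394 in the EST KO pool and 1403 in the WT pool, 2.42-fold higher. A second Id2 probe set had a log2 ratio of 0.71, under 2-fold, and the mean of both was 1.21. A pseudocount brought Id3 to a log2 ratio of 0.96, under 2-fold. Acvrl1, which encodes ALK1, and its ligand genes Gdf2 and Bmp10 were below background in both pools.

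Nitric oxide genes other than Nos3 ranged from a bound of -2.21 to 1.15 on the log2 scale. Of 11 measured members 7 were lower and 4 higher, with a median of -0.27, against 55.6% of all measured genes lower. Of the 8 above background in both pools 4 were lower, against 55.2% of all such genes. Arg2, the mitochondrial arginase that uses the substrate of nitric oxide synthase and is abundant in tubules, read 624.2 in the EST KO pool and 2945 in the WT pool, at least 4.61-fold lower, with a second probe set at a log2 ratio of -0.32. The enzymes that clear the synthase inhibitor dimethylarginine opposed each other. Ddah2 read 687.3 in the EST KO pool and 1266 in the WT pool, 1.84-fold lower (log2 -0.55 with a pseudocount), and Ddah1 read 9418 in the EST KO pool and 4253 in the WT pool, 2.21-fold higher. The 5 Ddah1 probe sets above background ran from -1.11 to 1.15, with a mean of 0.21, so its direction rests on the brightest. Akt1, a kinase that can activate the synthase, was 1.45-fold lower. Nos2, the inducible synthase, was below background in both pools.

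Adhesion complexes of endothelial borders, most of whose parts tubular epithelium also expresses, were lower for 5 of 7 measured genes (4 of 7 with the arrays scaled to the same median), against 55.6% of all measured genes, with a median of -0.27. No member was 1.5-fold apart at its brightest probe set with the values as deposited. Ctnnb1, which encodes the cadherin partner beta-catenin, read 6712 in the EST KO pool and 9084 in the WT pool, 1.35-fold lower, with log2 ratios down to -0.89 among its 3 probe sets and -0.61 under quantile normalization, both past 1.5-fold. Vcl (vinculin) had a log2 ratio of -0.31 and Afdn (afadin) one of -0.27, against -0.20 and -0.16 with the arrays scaled to the same median. Ctnnd1 (p120-catenin) was at -0.27 from its brightest probe set and at 0.30 from the other. Cldn5, the endothelial claudin, was below background in both pools.

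Of 8 genes by which leukocytes attach to endothelium, only Icam1, which injured tubules also express, was above background, and only in the EST KO pool. It read 1108 in the EST KO pool and 518.9 in the WT pool, at least 1.64-fold higher (log2 1.09 without a floor). Vcam1, Sele and Selp, which activated endothelium displays, were below background in both pools.

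Lists of markers of neighbouring cells had medians below 0, as the endothelial genes did, except that of the proximal tubule. The counts stand beside a share of all measured genes lower of 55.6% as deposited and 43.1% with the arrays scaled to the same median. Of 11 listed pericyte and smooth muscle markers, 7 were measured, and 5 of these were lower, with a median of -0.47. The summed intensity over the 10 on the array was 10308 in the EST KO pool and 12552 in the WT pool. The 5 above background in both pools were all lower as deposited, against 55.2% of all such genes. The other 2, Cspg4 and Abcc9, were above it only in the EST KO pool and so could only come out higher. Tagln, an actin-binding protein of smooth muscle, was 1.83-fold lower and Rgs5, a pericyte regulator of G-protein signalling, 1.44-fold lower. Acta2 (smooth muscle actin) was 1.42-fold lower and Pdgfrb, the pericyte PDGF receptor, 1.38-fold lower. In the other direction, Cspg4 read 890.0 in the EST KO pool and 612.0 in the WT pool, at least 1.32-fold higher. Abcc9 read 696.7 in the EST KO pool and 484.5 in the WT pool, at least 1.03-fold higher. The list median lay between -0.41 and -0.16 over the alternatives. Of 13 leukocyte markers 7 were measured and all 7 were lower, with a median of -0.51. The summed intensity over 12 was 10056 in the EST KO pool and 16374 in the WT pool. The 6 above background in both pools were all lower, against 55.2% of all such genes. The other 1 was above it only in the WT pool and so could only come out lower. Largest was the difference of S100a8 (3.22-fold), a calprotectin subunit of neutrophils. Cd14 (2.11-fold), a lipopolysaccharide co-receptor, Tyrobp (1.88-fold), an adaptor of myeloid receptors, and S100a9 (1.42-fold) came next. With a pseudocount the log2 ratios of Tagln (-0.53), Pdgfrb (-0.30), S100a8 (-1.10) and Tyrobp (-0.59) were smaller by over 1.5 times. Ptprc, which encodes the pan-leukocyte protein CD45, was below background in both pools. Of 6 platelet markers only Pf4, platelet factor 4, was measured, 2.01-fold lower (788.5 in the EST KO pool and 1586 in the WT pool, log2 -0.66 with a pseudocount), with a summed intensity over 5 of 2039 in the EST KO pool and 3060 in the WT pool. Of 6 podocyte markers only Podxl, a surface protein shared with endothelium, was measured, 1.34-fold lower. The summed intensity over 4 was 1693 in the EST KO pool and 2373 in the WT pool. Much of that difference came from Synpo (204.5 in the EST KO pool and 661.8 in the WT pool), below background in both pools. All 8 proximal tubule markers were at least 1.5-fold higher, against 8.62% of all measured genes. Their median was 1.21 and their summed intensity 69221 in the EST KO pool and 29899 in the WT pool. Pdzk1, a brush border scaffold, was 7.71-fold, the dicarboxylate transporter Slc13a3 6.64-fold, the organic anion transporter Slc22a6 6.11-fold and the endocytic receptor Cubn 2.79-fold higher. A second Slc22a6 probe set had a log2 ratio of 0.88, and the mean of both was 1.74, against 2.61 for the brightest. The part of these cell types in the endothelial ratios was not tested.

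**Figure D3:**
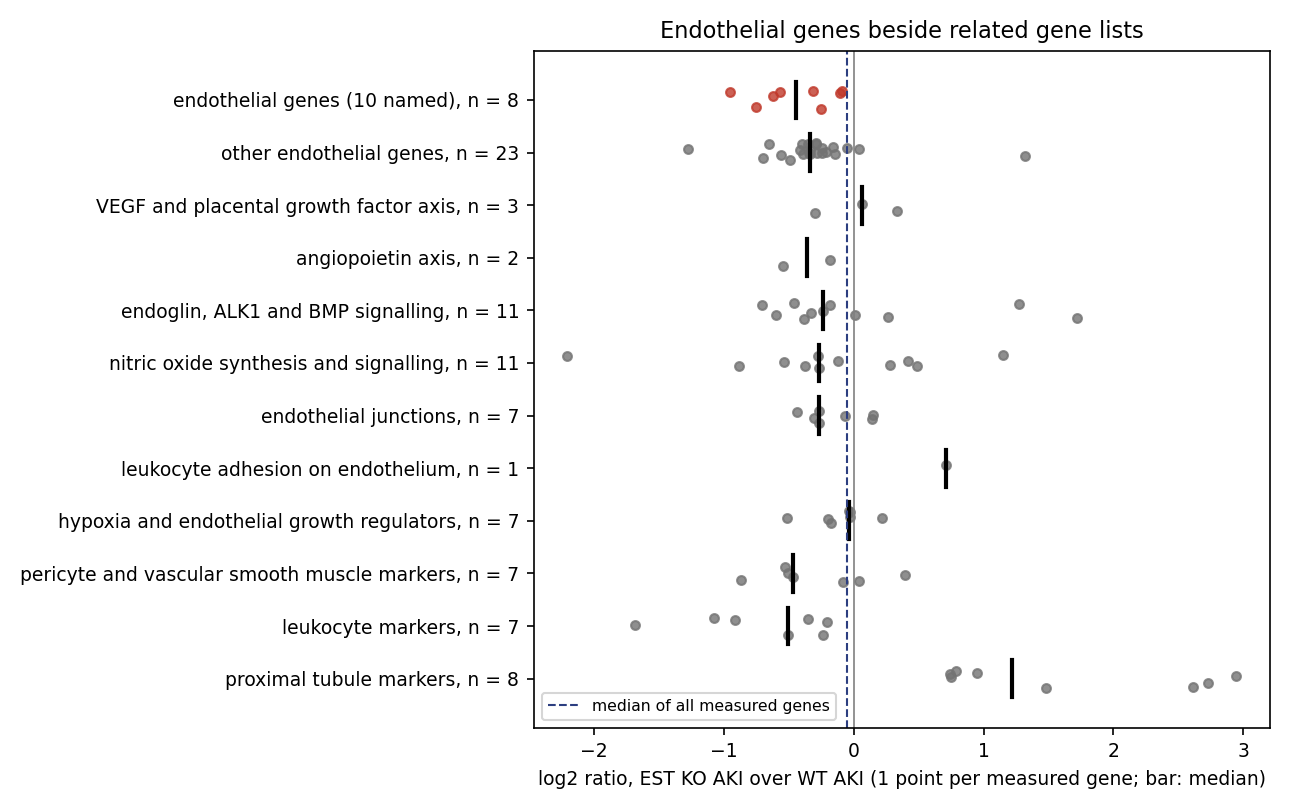
Log2 ratio of the EST KO AKI pool over the WT AKI pool for each measured gene (point) of the 10 endothelial genes (red) and of 11 related lists (grey), with the median of each list as a black bar and that of all 7346 measured genes as a dashed line. The endothelial (-0.44), other endothelial (-0.33), pericyte (-0.47) and leukocyte (-0.51) medians lie left of the dashed line, and the proximal tubule median (1.21) lies right of it.

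The direction was tried under 8 other ways of processing. Of the 61 log2 ratios that these gave for the 8 measured endothelial genes, 59 were below 0 and 2 above, which were those of Cdh5 and Emcn with the arrays scaled to the same median. Some of the 61 equalled the reported ratio, because a changed floor or choice of probe set does not act on every gene. The 59 are thus not separate checks of direction. Kdr ranged from -0.59 to -0.42, Plvap from -0.62 to -0.39, Eng from -0.77 to -0.40, Nos3 from -1.07 to -0.64, Flt1 from -0.66 to -0.21 and Pecam1 from -0.53 to -0.14. Tek came above a background set at the 75th percentile of the silent families, with a log2 ratio of -0.11.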

How the data were processed

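Kidney RNA of 1 EST KO AKI pool and 1 WT AKI pool was extracted with Trizol and hybridised as biotinylated cRNA by the Affymetrix protocol, per the labels' protocols. The authors deposited a linear intensity for each of 45101 probe sets on either array; the software that summarised them is not given in the sources used here. From the values, each array had been scaled to a trimmed mean of 500.0 and not quantile normalized; they were used as they stood. Gene symbols came from the platform annotation at GEO (34958 with 1 symbol, 932 with several, 9211 with none), with symbols updated by Entrez ID from a RefSeq table of GRCm38.p6 (34754 matched). Each gene was represented by its brightest probe set over the arrays' mean. A gene counted as measured if it exceeded the array background (95th percentile of silent-family probe sets) in at least 1 pool and its bounded ratio had an order: 7480 genes exceeded it and 134 of these had no order. Values below background were set to it before log2. With 1 array per group, no test was run, and counts are set beside those over all measured genes at 1.5-fold and 2-fold. The calculation was tested on simulated data with changes larger than those of the endothelial genes and noise smaller than the probe set error. That test does not speak for ratios of the size found for the endothelial genes. The genes named are the 10 members, Sult1e1 and up to 4 measured members of each of 15 lists with the largest ratio either way. Dim genes, those above background in no pool, Alb, Cspg4 and Abcc9 were named in addition. The members and lists were chosen with earlier results of these data known. The alternatives changed the background, the floor, the pseudocount, the scaling, the trend on level (lowess, fraction 0.4) and the choice of probe set. Software was Python 3.11.15 with pandas 2.3.3, numpy 2.4.6, statsmodels 0.14.6 and matplotlib 3.10.9. The number of arrays limits the precision.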

Additional observations from a re-analysis of the deposited data

How the results depend on the processing

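No paired analysis was possible because each group is 1 pooled array, and no array could be left out. Over the 8 alternatives the median log2 ratio of the endothelial genes ran from -0.57 without probe sets ending in _s_at, _x_at or _a_at to -0.33 with the arrays scaled to the same median. All measured endothelial genes were lower under each alternative except that scaling, where 6 of 8 were. Leaving out those probe sets left 5 genes measured, all 5 lower. With a pseudocount, 1 endothelial gene was at least 1.5-fold lower; with background at the 75th percentile, and with no floor, 1 (Nos3) was at least 2-fold lower. Of the 61 ratios of the 8 measured endothelial genes, 56 moved by less than the probe set error of 0.28 and 5 by more. Those 5 were Eng (-0.40) and Flt1 (-0.66) with the mean of probe sets, Nos3 (-0.64) with a pseudocount, and Pecam1 (-0.53) with no floor and with the 75th percentile background. Part of the 56 was fixed in advance, since some alternatives could not act on a gene. The scaling to the same median shifts all ratios alike, by less than that error. Tek was measured only with that background. Across all genes, those at least 1.5-fold lower numbered 556 as reported, 330 with the arrays scaled to the same median, 1026 with the 75th percentile background and 268 with a pseudocount. Those at least 2-fold lower numbered 105 as reported, 204 with the 75th percentile background, 197 with no floor and 43 with a pseudocount. The 75th percentile background tested more genes (11104), of which 6458 were lower. The median of the leukocyte adhesion list, which rested on Icam1 alone at 0.71, was -0.017 with that background, when 6 of its genes were measured. Signals of these genes lay at or under 2.94 times background, which limits how finely folds are known.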

Other observations

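Regulators of the response to low oxygen and of vessel growth had a list median near that of all genes, with members on either side. Of 10 listed genes 7 were measured, 6 lower and 1 higher, with a median log2 ratio of -0.03 (0.08 with the arrays scaled to the same median, when 3 were lower). The share of all measured genes lower was 55.6% as deposited and 43.1% with that scaling. Of the 6 above background in both pools 5 were lower as deposited, against 55.2% of all such genes. Vhl was above it only in the WT pool and so could only come out lower. Thbs1, which encodes the angiogenesis inhibitor thrombospondin-1, read 1252 in the EST KO pool and 1784 in the WT pool, 1.42-fold lower. Hif1a, the oxygen-regulated subunit of hypoxia-inducible factor, read 3114 in the EST KO pool and 2683 in the WT pool, 1.16-fold higher. Vhl, which marks that subunit for breakdown, read 592.7 in the EST KO pool and 734.3 in the WT pool, at least 1.15-fold lower, and Adamts1, a matrix protease, read 2389 in the EST KO pool and 2700.3 in the WT pool, 1.13-fold lower. With the arrays scaled to the same median the log2 ratios of Vhl (-0.09) and Adamts1 (-0.07) were smaller by over 1.5 times, and that of Hif1a was 0.07 under quantile normalization, against 0.22 as reported.

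Of 4 markers of lymphatic endothelium only Pdpn, podoplanin, which podocytes also make, was above background, and only in the WT pool. It read 602.8 in the EST KO pool and 963.5 in the WT pool, at least 1.51-fold lower.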
